A study of Danio rerio with 170 samples.

Results

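The lens crystallins were taken as every gene of the deposited table whose symbol, matched by NCBI gene identifier, begins with cryaa, cryab, cryba, crybb or cryg. There were 34 such genes among the 21854 genes of the table (0.156%). RNA had been sequenced from pools of whole Tropical 5D wild-type zebrafish embryos at 48 hpf, after exposure to 33 chemical treatments or to the DMSO vehicle in 6 control groups, and the authors combined 5 studies into 1 table. Entries that shared a lane and index were averaged. The resulting 144 libraries comprised 21 control and 123 treated libraries, with 2 to 4 libraries per treatment and 3 or 4 per control group.

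The FRC study held 10 flame retardant chemicals and the control DMSO_FRC (0.64% DMSO). Its treatments were TiBP (triisobutyl phosphate, 158 µM), IPP (triisopropylated phenyl phosphate, 19.8 µM), TDBPP (tris(2,3-dibromopropyl) phosphate, 3 µM), TBBPA and TBBPA-DBPE (tetrabromobisphenol A and its dibromopropyl ether, both 4 µM), TPP (triphenyl phosphate, 8 µM), TBPH (a brominated phthalate, 72 µM), and TCEP, TCPP (chlorinated alkyl phosphates) and BDE-47 (a brominated diphenyl ether) at 85 µM. The 16PAH study held 16 polycyclic aromatic compounds in 1% DMSO. Retene (12.2 µM), BjF (14.9 µM), BkF (1.9 µM), DBahP (10 µM), DBaiP (5 µM) and BbF, Fluoranthene, Phenanthrene and Acenapthene (50 µM) were compared with the control group DMSO_A, and 4h-CPdefP (16.2 µM), 3-NF (1.9 µM) and Carbazole, 1,5-DMN, 9-MA, 2-MN and Anthracene (50 µM) with DMSO_B. The PE50_BG study held BEZO (benzanthrone, 10 µM, 2 libraries), 7,12-B[a]AQ (the quinone benz(a)anthracene-7,12-dione, 10 µM) and 9,10-PQ (phenanthrene-quinone, 1.2 µM), and the PE50_AK study held DBalP (dibenzo(a,l)pyrene, 10 µM) and benzo(a)pyrene at 10 µM and 1 µM (B[a]P_10 and B[a]P_1), both with 1% DMSO controls. TCDD (1 ng/mL) was compared with DMSO_TCDD (0.1% DMSO). The amount of DMSO thus differed across studies.

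Crystallins are the soluble proteins that fill the fiber cells of the lens and give it its clarity and refractive power. The alpha crystallins belong to the small heat shock proteins and act as chaperones, while the beta and gamma crystallins share a common fold and mainly serve as structural proteins. The gamma M crystallins, rich in methionine, are abundant in the dense lenses of fish, and in the zebrafish the first fibers of the lens are already laid down at the stage sampled here. The 34 members comprised 1 alpha crystallin (cryaa), 7 beta A, 5 beta B, 18 gamma M, 2 gamma N and 1 gamma S crystallin. A RefSeq gene table of another genome build listed 57 crystallin symbols under the same rule, so that 23 (17 of them gamma M) were not analysed here. By its annotation 16 of the 18 gamma M members lie on 1 chromosome, and 13 carry the name crygm2d. Such close copies can share reads, so the value of any single crygm2d gene is uncertain.

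Reads per library ranged from 6795594 to 28566824 (median 18023618), of which 22865 to 152386 fell on crystallins. Values are given below as normalized values, which are read numbers divided by a size factor for each library. Of the 144 libraries, 5 stood apart from the other libraries of their own group over all genes, with a median absolute deviation of 0.392 to 0.724 on the log2 scale against 0.114 to 0.347 in the rest. They were TBBPA replicate 2, TCEP replicate 2, TPP replicate 1, Acenapthene replicate 4 and DMSO_PE50_AK replicate 3. The first 4 of these held the highest crystallin share of reads of their group (0.897%, 0.619%, 0.548% and 0.717%). DMSO_PE50_AK replicate 3 held the lowest of its group (0.440%). In TBBPA replicate 2, 14.1% of reads fell on ribosomal protein genes, against a mean of 2.35% in DMSO_FRC. Counts of the FRC and PE50_AK studies are therefore also given without these libraries, and the part of library quality in them was not tested.

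In the control embryos the 34 genes took between 0.319% and 0.591% of all reads. The mean share was highest in DMSO_PE50_AK (0.534% ± 0.082, SD, n = 3), followed by DMSO_A (0.474% ± 0.008, n = 3), DMSO_FRC (0.470% ± 0.069, n = 4), DMSO_PE50_BG (0.435% ± 0.029, n = 3), DMSO_B (0.415% ± 0.045, n = 4) and DMSO_TCDD (0.382% ± 0.075, n = 4). Neighbours in this order were closer to each other than the larger of their SDs. DMSO_A and DMSO_B, the control groups of a single study, differed in none of the 34 genes by limma (3 had an unadjusted p under 0.05, and 0 passed with voom weights), where 0.0595% of all genes were called in either direction. Of the 34 log2 fold changes of DMSO_A against DMSO_B, 27 were positive (median 0.17). Their crystallin shares did not overlap, at 0.466% to 0.483% in DMSO_A and 0.368% to 0.457% in DMSO_B.

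The make-up of the crystallin reads differed between studies more than their total. Gamma M crystallins took 44.7% to 48.6% of the crystallin reads in DMSO_A, DMSO_B, DMSO_FRC and DMSO_TCDD, but 22.6% ± 1.21 in DMSO_PE50_BG and 20.04% ± 1.64 in DMSO_PE50_AK (n = 3 each). Beta crystallins took 48.9% to 53.3% in the former and 72.2% and 74.7% in the latter. The difference ran through single genes in both directions. crygm2d21 (gene 569000) averaged 1846 ± 351 in DMSO_FRC and 1830 ± 70.6 in DMSO_A, but 273 ± 29.7 in DMSO_PE50_BG. crygm2d11 (gene 100126132) went the other way, with 86.8 ± 46.0 in DMSO_FRC and 235 ± 42.7 in DMSO_PE50_BG, as did the beta A crystallin cryba2b (475 ± 98.9 and 3406 ± 41.3). crybb1l1 (gene 553473), the beta B crystallin with the highest mean value, averaged between 7184 and 7995 in 4 control groups, 8558 ± 1039 in DMSO_FRC and 10970 ± 1737 in DMSO_PE50_AK. The PE50 libraries were read at 50 bp, the FRC and 16PAH libraries at 100 bp and the TCDD libraries at 150 bp, and study, read length and embryo batch cannot be told apart. Mitochondrial ribosomal RNA also took a mean of 6.98% of reads in DMSO_PE50_AK and 8.46% in DMSO_PE50_BG, and at most 0.0424% in the other control groups.

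**Figure D1:**
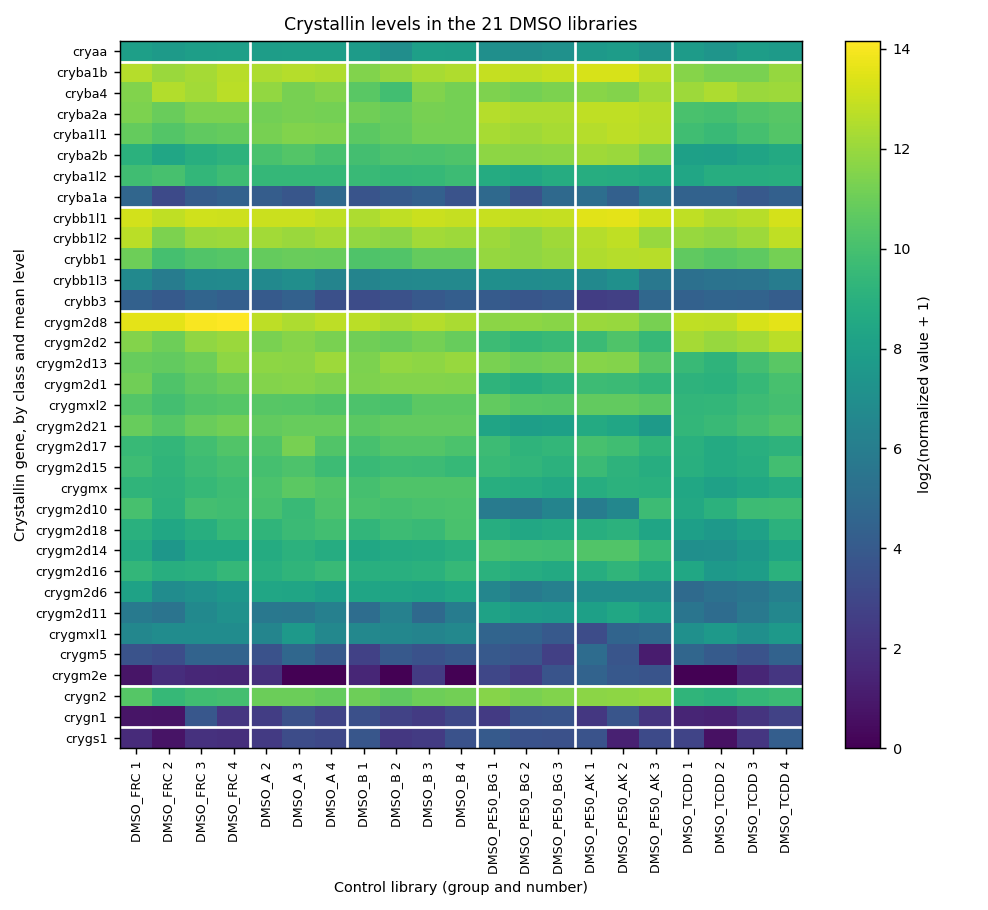
Level of each of the 34 crystallins (rows, by class and mean level) in each of the 21 DMSO libraries (columns, by group), as log2(normalized value + 1). Dark colours are low values. In the PE50 columns crygm2d21 and crygm2d10 are darker and crygm2d11 is lighter than in the other studies, and crygm2d10 is high in DMSO_PE50_AK replicate 3.

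A few members were barely read at this stage. crygs1 (gene 503587), the only gamma S crystallin, ranged from 0 to 39.2 over the 144 libraries with a median of 5.98, and crygn1 (gene 493629) from 0 to 13.9 with a median of 5.10. crygm2e was at 0 in 38 libraries. Changes of these genes, and of crygm5, crybb3 and cryba1a, rest on small read numbers, and 31 or 32 of the 34 members reached a mean normalized value of 10 in each study.

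As a share of all reads, crystallins were lower than in every library of their own DMSO group in 8 treatments and higher in 1. The lowest shares were in TiBP (0.190% ± 0.016, n = 4, 0.404 times DMSO_FRC) and IPP (0.216% ± 0.039, n = 4, 0.460 times). All 8 libraries lay between 0.161% and 0.245%, below the lowest DMSO_FRC library at 0.379%. TDBPP (0.310% ± 0.063, 0.659 times) and BEZO (0.297% ± 0.020, n = 2, 0.683 times) followed. DBalP was the treatment above its controls, with 0.685% ± 0.052 (n = 3) or 1.28 times DMSO_PE50_AK, and 1.18 times without DMSO_PE50_AK replicate 3. Retene (0.831 times), 9,10-PQ (0.863 times), Fluoranthene (0.894 times) and Phenanthrene (0.907 times) also did not overlap their own DMSO group, by smaller margins. Retene, Fluoranthene and Phenanthrene lay below DMSO_A but within the 0.368% to 0.457% of DMSO_B, the other control group of that study. DMSO_B itself did not overlap DMSO_A. TBBPA averaged 0.462% ± 0.292, since 3 libraries lay at 0.275% to 0.363% and replicate 2 at 0.897%. In whole embryos, fewer lens fiber cells and less crystallin RNA per cell cannot be told apart.

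**Figure D2:**
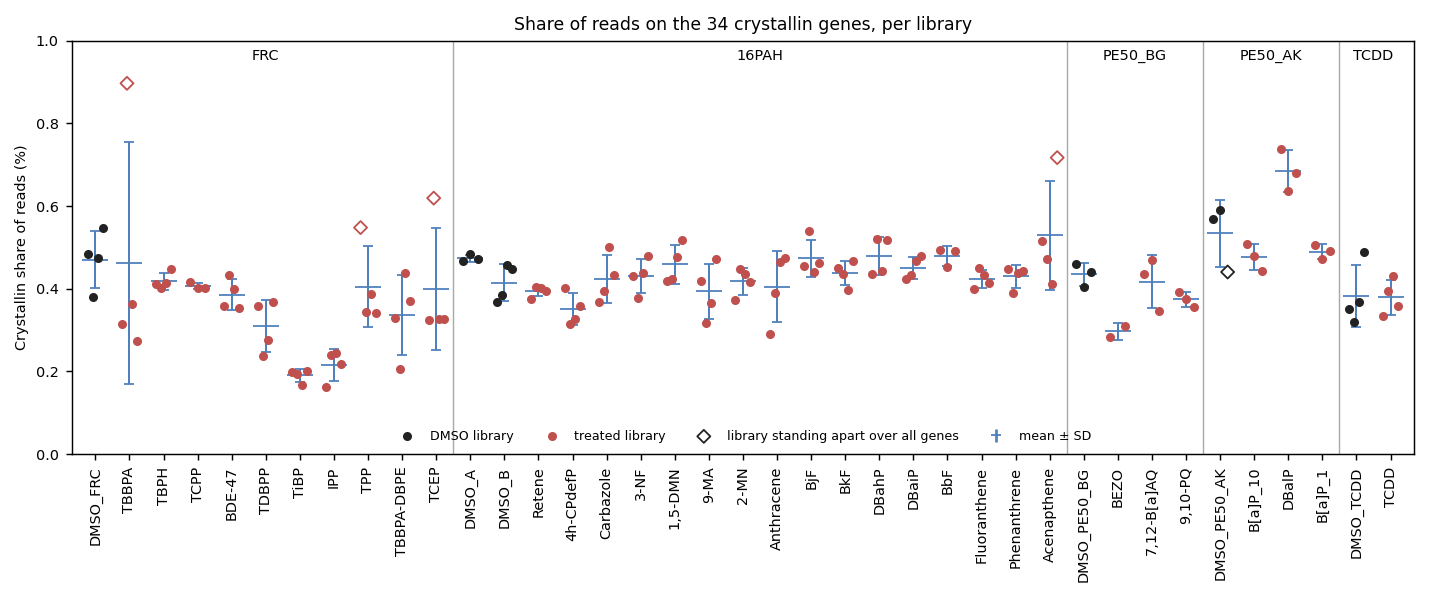
Share of reads on the 34 crystallin genes in each library, by group and study. Blue marks are the mean and SD, black points DMSO libraries, red points treated libraries, and open diamonds the 5 libraries that stand apart over all genes. TiBP and IPP lie lowest (0.161% to 0.245%), DBalP lies above its controls, and TBBPA replicate 2 is the highest library at 0.897%.

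Gene by gene, a member was called changed at an adjusted p under 0.05 (limma, Benjamini-Hochberg over all 21854 genes). Of the 1122 combinations of 34 members and 33 treatments, 80 were lower and 9 were higher. The lower calls lay in 9 treatments and the higher ones in DBalP alone. The other 23 treatments had no call. Among their 782 combinations, 47 (6.01%) had an unadjusted p under 0.05, 40 of them on the lower side. With voom weights on the recovered reads 1 was called. The share of all genes with an unadjusted p under 0.05 is not given. Counts of members at that limit are therefore not read as a result about crystallins. By their labels all entries of a group are separate replicates, but in the PE50 studies those that shared a lane and index were averaged into a library. The labels do not say that each library came from a separate spawn, so the p-values measure the spread between these libraries.

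**Figure D3:**
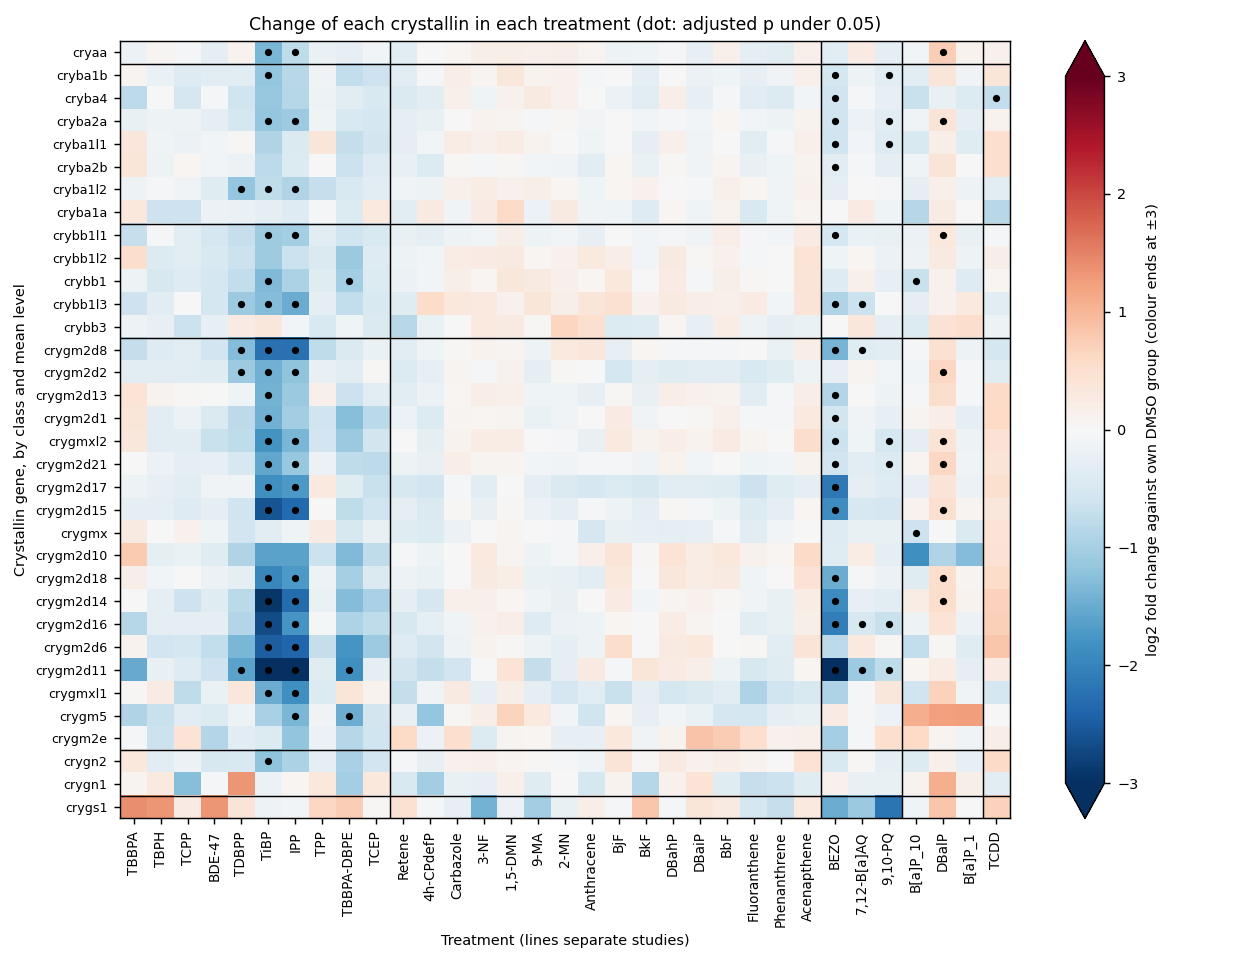
Log2 fold change of each crystallin (rows) in each treatment against its own DMSO group (columns, with lines between studies). Blue is lower and red is higher, the colour scale ends at 3 in both directions, and a dot marks an adjusted p under 0.05. Dots gather in TiBP (22), IPP (18) and BEZO (18) on the lower side, and in DBalP (9) on the higher side.

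TiBP lowered the largest number of crystallins, 22 of 34, where 8.00% of all genes were lower, and IPP lowered 18, where 5.97% were. Of these, 17 were called in both, in comparisons that share the DMSO_FRC libraries. No member was called higher in either. The median log2 fold change over the 34 genes was -1.32 in TiBP and -1.10 in IPP, against 0.016 and 0.037 over all genes. The change was not even across classes. The 18 gamma M crystallins had a median of -1.70 in TiBP (14 lower) and -1.66 in IPP (13 lower), and the 12 beta crystallins -1.07 (6 lower) and -0.83 (4 lower).

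The largest fall was that of crygm2d11, a gamma M crystallin. Its normalized values were 55.9, 43.4, 105 and 143 in the 4 DMSO_FRC libraries, 2.63, 0.80, 0.716 and 0.868 in TiBP, and 4.28, 12.5, 3.88 and 7.86 in IPP. The TiBP values stood for only 4, 1, 1 and 1 reads, against 65 to 156 reads in the controls. No treated library reached the lowest control, and the log2 fold changes on the log2(value + 1) scale were -5.20 ± 0.61 (SE, adjusted p = 6.64e-08) and -3.40 ± 0.61 (adjusted p = 1.22e-04). In absolute terms crygm2d8 (gene 436854), which took 23.9% of the crystallin reads in DMSO_FRC, fell furthest of the 34. It measured 12413, 12169, 16511 and 18353 in the controls, 2284, 3070, 3547 and 3596 in TiBP, and 1996, 2937, 3496 and 4478 in IPP. The groups were far apart, and the fall was 4.75-fold in TiBP (adjusted p = 3.75e-08) and 4.73-fold in IPP (adjusted p = 5.57e-08). crygm2d14, crygm2d16, crygm2d15 and crygm2d6 fell by 2.47 to 2.92 on the log2 scale in TiBP and by 1.77 to 2.37 in IPP. crygm2d13 (gene 436681) and crygm2d2 (gene 558501), the other gamma M crystallins with high values, had log2 fold changes of -1.42 and -1.43 in TiBP, and crygm2d13 did not pass in IPP (-1.11, adjusted p = 0.104).

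Beta crystallins fell by smaller steps. cryba2a (gene 415139) measured 2651, 1977, 2612 and 2613 in DMSO_FRC, 1128, 1011, 1064 and 1153 in TiBP, and 1079, 1294, 1082 and 1170 in IPP. The treated libraries were closely grouped and all below the controls, with log2 fold changes of -1.17 ± 0.28 (adjusted p = 2.37e-03) and -1.08 ± 0.28 (adjusted p = 5.97e-03). crybb1l1, with values of 7069 to 9456 in the controls, lay at 3096 to 4964 in TiBP and 3368 to 4984 in IPP (log2 fold changes -1.07 and -1.01). crybb1l3 (gene 566891), a less abundant copy, fell by 1.31 and 1.48. cryba1b (gene 436859) was lower in TiBP (1982 to 2652 against 4176 to 6300, adjusted p = 6.51e-03), and in IPP its 2188 to 4085 did not pass the test. The high-valued crybb1l2 passed in no treatment, and cryba4 passed in neither TiBP nor IPP.

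The chaperone cryaa (gene 100000769) measured 251, 212, 241 and 252 in DMSO_FRC, 138, 93.6, 58.0 and 96.3 in TiBP, and 126, 174, 135 and 132 in IPP. All 8 treated libraries were below the controls (log2 fold change -1.36 ± 0.27, adjusted p = 2.94e-04, and -0.76 ± 0.27, adjusted p = 0.048). crygn2 (gene 445034), the abundant gamma N crystallin, was lower in TiBP (322 to 497 against 708 to 1390, adjusted p = 0.042), while its 299 to 656 in IPP did not pass. Without the FRC libraries that stand apart, 27 members were lower in TiBP and 24 in IPP, where 15.1% and 11.8% of all genes were. The count of members called in TiBP ranged from 17 to 26 when single replicates were left out. That of IPP ranged from 9, without replicate 1 of every treatment, to 27, without replicate 2.

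In TDBPP 5 of the 34 crystallins were lower, where 11.8% of all genes were, so the share of members called (14.7%) was near that of all genes. The 5 were crygm2d8, cryba1l2, crygm2d2, crybb1l3 and crygm2d11. crygm2d8 measured 8461, 4085, 4972 and 7110, below each control (log2 fold change -1.31 ± 0.26, adjusted p = 1.97e-04). crygm2d11 measured 34.1, 11.8, 18.6 and 50.5, and its highest library overlapped the controls (-1.60 ± 0.61, adjusted p = 0.049). Without the 3 FRC libraries that stand apart, none of which belongs to TDBPP or DMSO_FRC, 17 members were called, where 17.1% of all genes were lower, and 9 without TBBPA replicate 2 alone. These libraries entered the same fit, and all groups of the study shared its estimate of the spread. The count was 2 without replicate 3 of every treatment and 8 without replicate 2, and 3 without replicate 1 or without DMSO_FRC replicate 1 or 4. The share of all genes is not given for the counts of 9, 2, 8 and 3. These are not read as a result about crystallins.

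TBBPA-DBPE lowered 3 members, crygm5, crygm2d11 and crybb1, where 5.10% of all genes were lower, although 32 of the 34 log2 fold changes were negative (median -0.74). The count was 21 without the 3 FRC libraries that stand apart, where 12.9% of all genes were lower, 11 without TBBPA replicate 2 alone, 5 without TCEP replicate 2 alone and 10 without replicate 2 of every treatment. It was 0 without DMSO_FRC replicate 3 or 4 or without replicate 1 or 4 of every treatment, and 1 without DMSO_FRC replicate 1 or replicate 3 of every treatment. Of these settings the share of all genes is given only for the count of 21. The other counts are not read as a result about crystallins. TBBPA, TCEP and TPP had no call by limma (4, 1 and 2 members with an unadjusted p under 0.05, and 1, 0 and 0 with voom weights), where 8.18%, 9.38% and 3.36% of all genes were called in either direction. Each held a library with high crystallins, and 10, 20 and 6 members were lower in them without the libraries that stand apart, where 4.56%, 16.8% and 9.99% of all genes were lower. Without its own such library alone, the count was 5 in TBBPA, 5 in TCEP and 2 in TPP, and the share of all genes is not given for these either. In TBBPA, crybb1l2 measured 3160, 33886, 4683 and 2881 and crygm2d10 measured 503, 25849, 906 and 377, so that replicate 2 alone was high. crybb1l1 ran the other way, with 6590, 2654, 7806 and 5785. TBPH, TCPP and BDE-47 had no call either (0, 1 and 1 members with an unadjusted p under 0.05, and 0 with voom weights), with medians of -0.25 to -0.31, where 0.0686%, 0.458% and 2.48% of all genes were called.

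**Figure D4:**
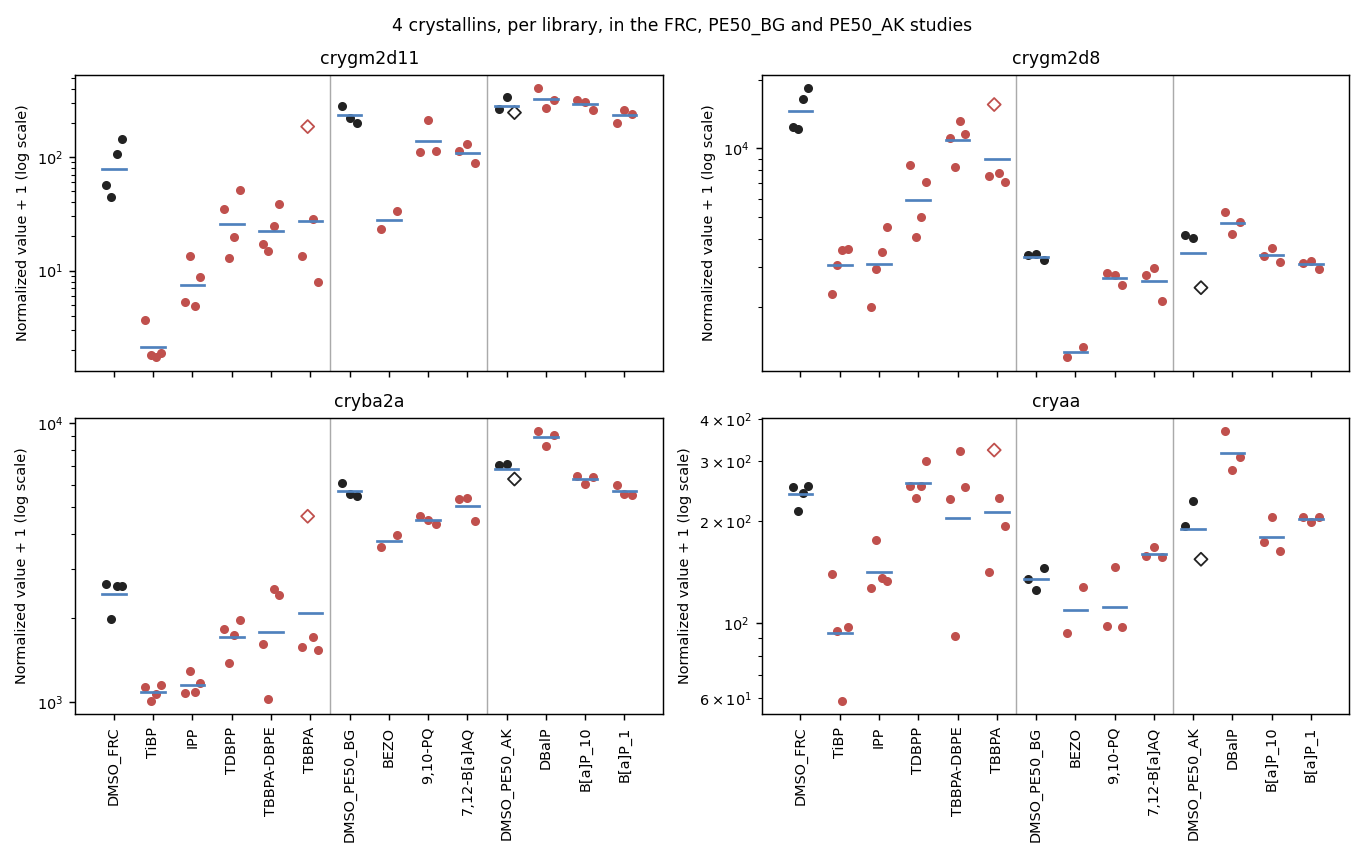
Normalized value + 1 (log axis) of crygm2d11, crygm2d8, cryba2a and cryaa in each library of 14 groups from the FRC, PE50_BG and PE50_AK studies. Black points are DMSO libraries, red points treated libraries, open diamonds libraries that stand apart, and blue lines the mean on the log scale. TiBP, IPP and BEZO lie below their controls for crygm2d8 and cryba2a, and DBalP lies above its controls for cryba2a and cryaa.

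BEZO also lowered 18 of the 34 crystallins, where 1.75% of all genes were lower. The median log2 fold change was -0.60 against 0.017 over all genes. Of the crygm2d genes 10 of 13 were lower (median -1.40), of all gamma M crystallins 11 of 18, of the beta A crystallins 5 of 7 and of the beta B crystallins 2 of 5, while cryaa, crygn2 and crygs1 did not pass the test. crygm2d11 measured 283, 221 and 200 in the controls and 22.1 and 32.3 in BEZO (log2 fold change -3.07 ± 0.24, adjusted p = 1.22e-07). crygm2d8 measured 3377, 3423 and 3214 against 1200 and 1336, and crygm2d16 (gene 798701) 521, 438 and 391 against 107 and 103. For all 3 genes the 2 BEZO libraries were several times below the controls (2.63-fold for crygm2d8, adjusted p = 6.32e-08, and 4.23-fold for crygm2d16, adjusted p = 4.67e-09). They were close together for crygm2d8 and crygm2d16, and further apart for crygm2d11. cryba2a fell from 5488 to 6096 in the controls to 3603 and 3956, a log2 fold change of -0.60 ± 0.09 (adjusted p = 2.67e-04). With BEZO reduced to 1 library, assumed to vary like the other groups, 10 (without replicate 1) or 14 (without replicate 2) members were called.

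The 2 quinones of the same study gave fewer calls. BEZO and its controls were sequenced on lane 1, 7,12-B[a]AQ on lanes 1 and 2 and 9,10-PQ on lanes 2 and 3, so 9,10-PQ and lane cannot be told apart. 9,10-PQ lowered 7 members, where 3.38% of all genes were lower, and 7,12-B[a]AQ lowered 4, where 4.24% were. All 7 and all 4 were also lower in BEZO, against the same control libraries. In 9,10-PQ, cryba2a measured 4624, 4477 and 4357, each below the controls (log2 fold change -0.35 ± 0.08, adjusted p = 9.25e-03), and crygm2d16 measured 254, 305 and 282 (-0.68 ± 0.12, adjusted p = 1.51e-03). crygm2d11 was the largest called change of 9,10-PQ (109, 210 and 113, log2 fold change -0.75 ± 0.22, adjusted p = 0.045), but its replicate 2 lay within the controls. In 7,12-B[a]AQ, crygm2d11 measured 112, 129 and 87.9, below all controls (-1.10 ± 0.22, adjusted p = 2.87e-03). The counts fell to 2 for 9,10-PQ and to 1 for 7,12-B[a]AQ without control replicate 1, and to 3 and 2 without control replicate 3. For 7,12-B[a]AQ the count was also 2 without control replicate 2.

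DBalP was the only treatment with crystallins called higher in the main test. There were 9 of 34, where 13.7% of all genes were higher, and the median log2 fold change was 0.38 against 0.025 over all genes. cryaa rose most, from 192, 228 and 153 in DMSO_PE50_AK to 366, 281 and 307 (log2 fold change 0.74 ± 0.16, adjusted p = 2.67e-03). cryba2a measured 7075, 7115 and 6289 in the controls and 9317, 8257 and 9073 in DBalP, without overlap (0.38 ± 0.09, adjusted p = 4.20e-03). crygm2d2, crygm2d21, crygm2d14, crygm2d18, crygm2d15, crygmxl2 and crybb1l1 were higher by 0.32 to 0.63 on the log2 scale, and of these crygm2d15 overlapped the controls. All 9 were called lower in both TiBP and IPP. The count fell to 1 without replicate 1 or replicate 3 of every treatment and to 3 without replicate 2, and was 15 and 14 without control replicates 1 and 2. It was 7 without DMSO_PE50_AK replicate 3, with a median of 0.19, where 17.3% of all genes were higher. The share of all genes is not given for the other counts without a replicate. Those are not read as a result about crystallins.

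All DMSO_PE50_AK and B[a]P_10 libraries were sequenced on lane 3 and all DBalP and B[a]P_1 libraries on lane 4. DBalP and lane therefore cannot be told apart in its comparisons with DMSO_PE50_AK and with B[a]P_10. The same holds for B[a]P_1 in its comparisons with these groups. B[a]P_1, on the lane of DBalP, is another compound at another dose, so the part of lane was not tested. B[a]P_1 measured 204, 197 and 205 for cryaa and 5995, 5536 and 5531 for cryba2a. Its crystallin share was 0.472% to 0.506% against 0.635% to 0.739% in DBalP.

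The counts for benzo(a)pyrene also changed when DMSO_PE50_AK replicate 3 was left out. B[a]P_10 lowered 2 members, crybb1 and crygmx, where 0.320% of all genes were lower, and B[a]P_1 none by limma (7 with an unadjusted p under 0.05, 0 with voom weights), where 0.183% of all genes were called in either direction. Without DMSO_PE50_AK replicate 3 the counts were 15 and 12, where 2.23% and 2.39% of all genes were lower. crybb1 measured 5784, 6252 and 6451 in the controls and 4470, 3938 and 3290 in B[a]P_10 (log2 fold change -0.67 ± 0.12, adjusted p = 0.016). The count was 0 without replicate 2 or 3 of every treatment, 1 without replicate 1, and 3 without control replicate 1 or 2. crygm2d10 shows how far the control library departed, with 61.9, 94.1 and 822 in the 3 controls and 30.8 to 107 in the 9 treated libraries.

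In the 16PAH study no crystallin was called by limma in any of the 16 treatments (31 of 544 combinations had an unadjusted p under 0.05, and 0 passed with voom weights). Few genes of any kind were called there. The share of all genes called in either direction was 3.00% in 9-MA, 1.40% in Acenapthene, 1.32% in DBahP, 1.21% in Carbazole, 1.14% in 4h-CPdefP and 1.11% in Retene. It was 0.760% in BjF, 0.549% in BkF, 0.270% in Fluoranthene, 0.247% in BbF, 0.151% in DBaiP, 0.0137% in Phenanthrene, 0.00458% in 2-MN, and 0.00% in 3-NF, 1,5-DMN and Anthracene. The median log2 fold change over the 34 genes ran from -0.30 in Retene to 0.16 in Acenapthene. 4h-CPdefP had the most members with an unadjusted p under 0.05, 10 of 34, a count without the share of all genes. Of its log2 fold changes 32 were negative. Retene likewise had 32 negative values, in 4 libraries that all lay below the 3 DMSO_A libraries in crystallin share. TCDD lowered 1 member, cryba4 (gene 553178), where 0.805% of all genes were lower. It measured 4306, 5569, 4270 and 4397 in DMSO_TCDD and 2156, 2782, 2476 and 3790 in TCDD, without overlap (log2 fold change -0.75 ± 0.16, adjusted p = 0.039). The call of cryba4 was lost without control replicate 1, 2 or 3 and without TCDD replicate 1 or 3. Of the 34 log2 fold changes 24 were positive (median 0.30), and without control replicate 4 there were 10 members called higher and 1 lower. Without TCDD replicate 1 the only call was 1 higher. Control replicate 4 held the highest crystallin share of its group (0.490%). The share of all genes called in these settings is not given, so these counts are not read as a result about crystallins.

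Related compounds were compared directly in 6 pairs of a single study at 1 dose each, or at 2 doses of 1 compound, with p-values adjusted over all genes within each pair. At 10 µM, 19 crystallins were higher in DBalP, which has an additional fused ring, than in B[a]P_10, where 8.92% of all genes were higher. Among them crybb1 was higher by 0.79 on the log2 scale (95% interval 0.53 to 1.05, adjusted p = 3.55e-04) and cryaa by 0.82 (0.49 to 1.15, adjusted p = 1.69e-03). The count was 6, 9 and 5 without replicate 1, 2 or 3 of every treatment, and the compounds were on different lanes, as above. Also at 10 µM, 14 crystallins were higher in the quinone 7,12-B[a]AQ than in the ketone BEZO, where 0.975% of all genes were higher, with crygm2d8 higher by 1.03 (0.81 to 1.25, adjusted p = 3.32e-06) and crygm2d17 by 1.89 (1.57 to 2.21, adjusted p = 1.13e-07). Without replicate 1 or 2 that count was 7 or 8. At 4 µM, 8 crystallins were lower in TBBPA-DBPE than in TBBPA, where 12.7% of all genes were lower, and the count was 1 without TBBPA replicate 2. It was 13 without TCEP replicate 2 or replicate 4 of every treatment, and 3 without replicate 3.

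The other 3 pairs had no call by limma, where 0.448% (TCPP and TCEP), 0.142% (B[a]P_10 and B[a]P_1) and 4.17% (9-MA and Anthracene) of all genes were called in either direction. TCPP and TCEP at 85 µM differed in crygm2d8 by -0.15 (95% interval -0.71 to 0.41) and in crybb1l1 by 0.13 (-0.47 to 0.73), intervals that leave room for changes of the size seen in 9,10-PQ. Without the libraries that stand apart 11 members were higher in TCPP, where 6.80% of all genes were. B[a]P_10 and B[a]P_1 differed in crygm2d8 by 0.13 (-0.21 to 0.47) and in crybb1l1 by 0.04 (-0.20 to 0.28). They were on different lanes, as above, so dose and lane cannot be told apart. 9-MA and Anthracene at 50 µM differed in crygm2d8 by -0.51 (-0.83 to -0.19, adjusted p = 0.052) and in crybb1l1 by 0.09 (-0.26 to 0.45). Members with an unadjusted p under 0.05 numbered 2, 4 and 3 in these pairs, and voom weights called 0, 0 and 1. In the last pair 2 were called without Acenapthene replicate 4, and in the B[a]P pair 2 without DMSO_PE50_AK replicate 3.

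Across the 33 treatments 27 of the 34 crystallins were called at least once. crygm2d11 was lower in 7 treatments, more than any other member. crygm2d8, crygm2d16 and crybb1l3 were lower in 5. cryba2a, crygm2d21 and crygmxl2 (gene 554132) were lower in 4 and higher in DBalP. The 7 members never called were crybb1l2, crygm2d10 and the low-valued cryba1a, crybb3, crygm2e, crygn1 and crygs1.

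Lists of other lens genes and of photoreceptor and retinal genes were also counted. Of 20 lens fiber genes (membrane, cytoskeletal and enzyme genes of lens fiber cells), 6 were lower in TiBP, 7 in IPP, 5 in BEZO and 3 in TBBPA-DBPE, and 0 were higher there. These are 30.0%, 35.0%, 25.0% and 15.0% of the list, against 8.00%, 5.97%, 1.75% and 5.10% of all genes. In TDBPP 4 were lower (4 of 20, against 11.8% of all genes) and 1 was higher, and in DBalP 5 were higher (25.0%, against 13.7%) and 0 lower. dnase1l1l, a nuclease that clears DNA from maturing fiber cells, was called most often. It averaged 421 in DMSO_FRC, 114 in TiBP (log2 fold change -1.88 ± 0.24, adjusted p = 3.23e-07) and 139 in IPP (-1.59 ± 0.24, adjusted p = 7.68e-06), and it rose from 213 to 332 in DBalP (0.64 ± 0.14, adjusted p = 3.06e-03). The fiber list had medians of -0.47 in TiBP, -0.22 in IPP, -0.21 in BEZO and 0.29 in DBalP. Each was nearer 0 than that of the crystallins.

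Of 10 lens transcription factors, many of them also active in retina and brain, 5 were lower in TiBP (50.0%, against 8.00% of all genes), 5 in IPP (against 5.97%), 4 in TDBPP (against 11.8%) and 2 in BEZO (against 1.75%). In DBalP 5 were lower (against 14.3%) and 1, hsf4 (a heat shock factor of the lens, named here after its values were seen), was higher by 0.70 ± 0.18 (adjusted p = 9.89e-03). prox1a, a homeobox factor required for fiber differentiation in mice, was lower in 7 treatments, among them DBalP (2540 to 1030, log2 fold change -1.30 ± 0.08, adjusted p = 1.19e-07), where crystallins were higher.

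Photoreceptor and retinal genes were called lower in several of the same treatments. In whole embryos their reads cannot be assigned to the retina or to the eye. Of 14 photoreceptor genes 7 were lower in TiBP, 9 in IPP, 8 in TDBPP, 6 in TBBPA, 5 in BEZO, 8 in 9,10-PQ and 11 in DBalP, with 0 higher in these treatments. The share of all genes lower was 8.00%, 5.97%, 11.8%, 4.65%, 1.75%, 3.38% and 14.3% in the same order. sagb, a photoreceptor arrestin, was lower in 10 treatments and higher in 1. It averaged 146 in DMSO_FRC, 33.3 in TiBP and 26.8 in IPP, and 309.5 in DMSO_PE50_AK and 52.4 in DBalP (-2.54 ± 0.15, adjusted p = 6.07e-08). The photoreceptor median was -1.20 in TiBP, -1.38 in IPP and -1.83 in DBalP, so that the crystallin and photoreceptor medians were both negative in TiBP and IPP and of opposite sign in DBalP. Of 11 retinal progenitor and neuron genes 7 were lower in TDBPP and in DBalP and 5 in TiBP and in IPP, and 2, 1, 1 and 1 were higher. pou4f2, a factor of retinal ganglion cells, was lower in 9 treatments.

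**Figure D5:**
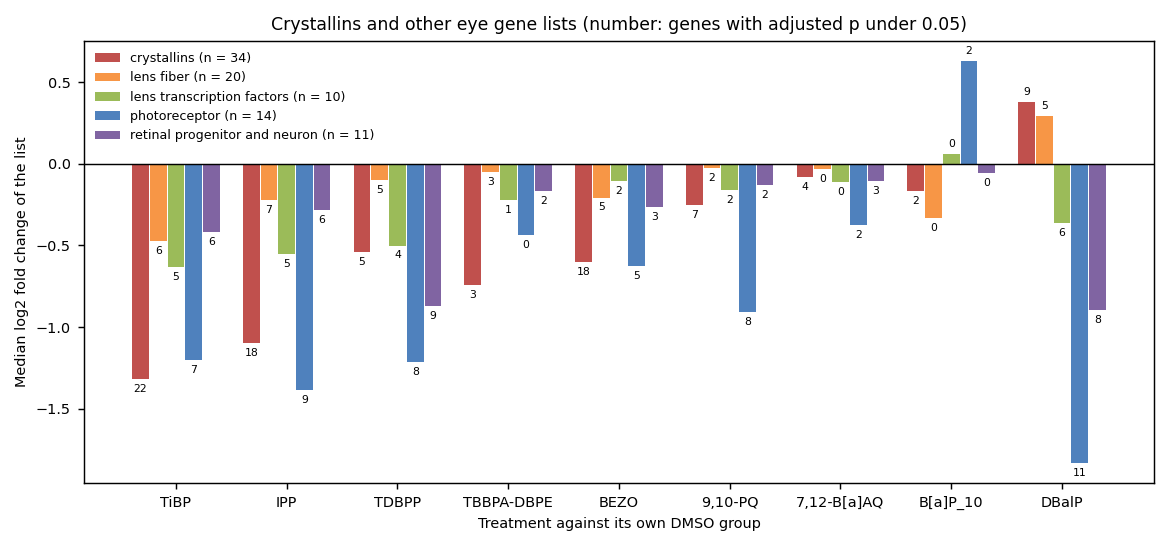
Median log2 fold change of the 34 crystallins and of 4 lists of lens, photoreceptor and retinal genes in 9 treatments against their DMSO groups. The number of genes called is given above or below each bar. Crystallins and photoreceptor genes are both negative in TiBP, IPP and BEZO, and have opposite signs in DBalP (0.38 and -1.83).

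Of 7 small heat shock genes, relatives of the alpha crystallins, hspb9 was higher in IPP (67.3 to 759, log2 fold change 3.38 ± 0.49, adjusted p = 4.56e-06) and in 4 other treatments and lower in 1, and hspb6 was higher in DBalP (22.1 to 97.4, 2.19 ± 0.31, adjusted p = 1.41e-04) and B[a]P_10 and lower in 4 treatments. No treatment had more than 3 of the 7 called against its controls. Of 6 epidermal keratin genes 5 were lower in 7,12-B[a]AQ, where 4.24% of all genes were lower, and no more than 1 in any other treatment. Most often called was krt91, lower in 4 treatments.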

How the data were processed

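RNA-seq libraries of whole zebrafish embryos were aligned by the authors with STAR to GRCz11, counted with HTSeq, filtered for genes with many zeros and normalized and variance-stabilized with DESeq2. The deposited values are on this log2 scale. They were inverted to normalized values and whole reads, and all 3715180 values came out within 0.05 reads of a whole number. Entries that shared a lane and index were averaged, giving 144 libraries from 170 entries. The labels number the averaged entries as separate replicates, and the authors counted all 170 as samples. Whether such entries are parts of the same library was not tested. No column belonged to another series.

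Each study was fitted separately by limma (version 3.58.1, R 4.3.3) with a variance trend, after adding a pseudocount of 1 and taking log2, and the two-sided p-values of each contrast were adjusted by Benjamini-Hochberg over 21854 genes. This scale understates changes of low genes. All groups of a study entered the same fit and shared its estimate of the spread. Leaving out a library of any group can therefore change the calls of other groups. Some counts with a library or replicate left out have no share of all genes beside them. Such counts are not read as a result about crystallins. SDs, SEs and n refer to libraries. The procedure was tested on simulated data. For BkF against DMSO_A, sets of 50 genes were given log2 fold changes of -2, -1, 1 and 2. Of each 50, 48, 41, 39 and 49 were recovered in that order, so more of the smaller changes were missed. In the same comparison 20 unchanged genes were also called. For DBaiP against DMSO_A, where no change was added, 0 genes were called. These numbers cannot be carried over to the FRC and PE50 studies, which held libraries that stand apart or fewer libraries per group.

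Members and lists were chosen with earlier results of these data known. Values are given for the 3 highest members of each class, members called in at least 5 treatments, the largest change in each treatment with at least 5 calls, and the most often called gene of each other list. Further names in the text were chosen after their values were seen. Gene lengths were not used, so levels are compared within a gene or as shares of reads.

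Alternatives were another pseudocount, a filter on low values, upper quartile rescaling, the deposited log2 values, voom on recovered reads, each entry as its own replicate, pooled controls, a replicate block and leaving out replicates. Summed reads of shared entries, and leaving out the 5 libraries that stand apart, were added after seeing the data. The authors' comparisons were not used.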

Additional observations from a re-analysis of the deposited data

Results flagged for a closer look

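A library was set apart where its gap to the nearest other library of its group exceeded 0.829 of the range of the group, for groups of 4, which chance does in about 1 of 20 groups. Of 28 groups tested for the crystallin share, 2 exceeded it. TBBPA had a gap of 0.857 of its range, with replicate 2 at 0.897% of reads, and TCEP a gap of 0.992, with replicate 2 at 0.619%.

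The members crygm2d11, crygm2d8, cryba2a, crybb1l1, cryba1b and cryaa were tested in groups of the FRC study. Of these 48 tests 6 exceeded it, none of them for cryba1b or cryaa. In TBBPA these were crygm2d11 (0.884), crygm2d8 (0.925) and cryba2a (0.941). In TCEP the gap of crybb1l1 was 0.867. In TiBP the gap of crygm2d11 was 0.921, where replicate 1 held 4 reads and the others 1 each. In DMSO_FRC the gap of cryba2a was 0.942, with replicate 2 at 1977 and the others at 2612 to 2651. The cause of these gaps was not tested.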

How the results depend on the processing

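Over the alternatives, 604 counts of called crystallins stayed within 1.5 times the main value, 100 moved and 2 reversed direction, both in TCDD (11 without control replicate 4 and 1 without treatment replicate 1). The 604 include counts that were 0 in the main test and stayed at 0. The main test had no call in 23 treatments, whose counts had no call to lose. How many of the 604 were such counts is not given, so the 604 are not read as a measure of stability. Of the values for single genes, 1084 kept their side of the threshold, 174 no longer passed and 0 reversed. The cause of the moves below was not tested.

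Without the libraries that stand apart, the total over the 33 treatments was 190 against 89. By treatment the count was 10 in TBBPA, 1 in BDE-47, 17 in TDBPP, 6 in TPP, 21 in TBBPA-DBPE, 20 in TCEP, 15 in B[a]P_10 and 12 in B[a]P_1, and by pair 3 in TBBPA-DBPE against TBBPA, 11 in TCPP against TCEP, 2 in 9-MA against Anthracene and 2 in B[a]P_10 against B[a]P_1. With each entry as its own replicate it was 8 in 7,12-B[a]AQ, 17 in 9,10-PQ, 11 in B[a]P_10, 18 in DBalP, 8 in B[a]P_1 and 1 in B[a]P_10 against B[a]P_1. The share of all genes lower was then 8.16% in 7,12-B[a]AQ, 8.40% in 9,10-PQ, 3.69% in B[a]P_10 and 2.97% in B[a]P_1. The share higher was 16.3% in DBalP and 0.78% in B[a]P_10 against B[a]P_1. With summed reads the count of members was 2 in 7,12-B[a]AQ (3.47% of all genes lower), 4 in 9,10-PQ (2.38% lower) and 14 in DBalP (19.1% higher). With voom it was 1 in TBBPA, 14 in DBalP, 2 in TCDD, 5 in TBBPA-DBPE against TBBPA and 1 in 9-MA against Anthracene. Upper quartile rescaling gave 1 in TBBPA and 1 in 9-MA against Anthracene, the filter on low values 1 in that pair, and pooled controls 1 in 4h-CPdefP and 1 in Acenapthene.

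With single replicates left out, the total ranged from 54 to 128 and that of the pairs from 19 to 50. The range was 0 to 8 in TBBPA, 2 to 9 in TDBPP, 9 to 27 in IPP, 17 to 26 in TiBP, 0 to 2 in TPP, 0 to 11 in TBBPA-DBPE, 0 to 21 in TCEP, 0 to 1 in Fluoranthene, 10 to 22 in BEZO, 1 to 5 in 7,12-B[a]AQ, 2 to 9 in 9,10-PQ, 0 to 15 in B[a]P_10, 1 to 15 in DBalP, 0 to 12 in B[a]P_1 and 0 to 11 in TCDD. For the pairs it was 1 to 13 in TBBPA-DBPE against TBBPA, 0 to 1 in TCPP against TCEP, 0 to 2 in 9-MA against Anthracene, 7 to 19 in 7,12-B[a]AQ against BEZO, 5 to 26 in DBalP against B[a]P_10 and 0 to 2 in B[a]P_10 against B[a]P_1. Leaving out a treatment replicate removes that number from every treatment of the study.

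The crystallin share relative to controls moved with summed normalized values to 0.820 in 9,10-PQ, 0.853 in B[a]P_1, 0.822 in B[a]P_10 and 0.801 in TCPP. Without the libraries that stand apart it was 0.844 in B[a]P_1, 0.822 in B[a]P_10 and 1.18 in DBalP. With single replicates left out, 10 to 19 treatments did not overlap their controls, against 9. Leaving out libraries narrows the ranges, so this count could not fall. The ratio then ranged from 0.633 (without replicate 2) to 1.18 in TBBPA, against 0.982, and from 0.649 (without replicate 2) to 0.950 in TCEP, against 0.848. It ranged from 0.738 to 0.891 in BDE-47, 0.628 to 0.737 in BEZO and 0.842 to 0.988 in B[a]P_1. In DBalP it was 1.18 to 1.40, in TCDD 0.927 to 1.12 and in TCPP 0.817 to 0.918.

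Replicate numbers did not pair the libraries. The mean correlation of same-numbered deviations was 0.0095 in FRC, 0.0069 in 16PAH and -0.117 in TCDD, and 12 of 43, 20 of 70 and 3 of 8 libraries correlated best with their own number. A replicate block gave a total of 87 calls, with 17 in IPP, 22 in TiBP, 0 in TCDD and 1 in 9-MA against Anthracene. The depth of crygs1, crygn1 and crygm2e limits their precision. The nearest to a call was crygs1 in 9,10-PQ (log2 fold change -2.20, adjusted p = 0.052 by limma, without overlap with the controls).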
